A study of Mus musculus with 36 samples.

Results

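The complement components and receptors described here are 9 genes, C3, C1qa, C1qb, C1qc, Cfb, C4b, Serping1, C3ar1 and C5ar1, taken by name from 49568 gene names in each of 2 tables of RNA-seq read counts. All 9 were found in both tables. The cells were RAW264.7, a mouse macrophage cell line that is 1 clonal line, exposed for 72 h to PBS or to 1 of a pair of synthetic peptides at 100 µg/ml. The peptide 65–79*SE carries the shared epitope of human HLA-DRB1 alleles that raise the risk of rheumatoid arthritis, and 65–79*PE carries the protective epitope. They have the same length and differ by a few amino acid substitutions. One table held the IFNγ series (IFNγ at 5 ng/ml, an M1-polarizing stimulus) and the other the Il-4 series (Il-4 at 5 ng/ml, an M2-polarizing stimulus). Each had 6 PBS, 6 65–79*SE and 6 65–79*PE libraries, 36 in all. The sources used here do not settle whether the PBS cells received the cytokine.

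Replicates 1–3 and replicates 4–6 of every group carried labels of different form and are shown apart. Library totals were 20.7 to 63.2 M counts for IFNγ and 17.0 to 30.6 M counts for Il-4. At these depths a count of 0 allowed up to 0.0541 to 0.166 CPM (counts per 1000000 counts of a library, with TMM scaling between libraries) and 0.0949 to 0.172 CPM, for counting error only. In the IFNγ table, transcripts of the 7SL RNA family took 15.0 to 20.4% of the counts in replicates 4–6 and at most 0.00538% in replicates 1–3. In the Il-4 table they took 1.39 to 1.99% and at most 0.00249%. Histone transcripts summed to 2360 to 15508 CPM in replicates 4–6 and 55.3 to 187 CPM in replicates 1–3 over both tables. The libraries of the replicate sets thus differ in RNA composition, and the source of this was not tested. A score of 20 IFNγ-response genes (mean log2 CPM) was 0.72 to 1.25 in the PBS libraries and 6.03 to 6.37 in 65–79*SE replicates 1–3 and in all 65–79*PE libraries. The 3 libraries labelled 65–79*SE, replicates 4–6, scored 0.73 to 1.08, so their values go against the IFNγ label and each result that rests on them stands beside the one from replicates 1–3. In the Il-4 table a score of 13 Il-4-response genes was -2.12 to -1.70 in PBS and -0.30 to 0.59 in the peptide groups. Each contrast against PBS therefore joins the cytokine response with any effect of the peptide. The exception is 65–79*SE, replicates 4–6, of the IFNγ series, where the score did not rise above that of PBS. Of 8 macrophage markers, 7 were above the floor of 3 counts in every library, and hepatocyte markers summed to at most 0.0968 CPM.

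Complement is a cascade of proteins in plasma and tissue fluid that tags particles for uptake and recruits leukocytes. The classical pathway starts when C1q, a molecule of A, B and C chains, binds its target and C4 and C2 are cleaved. The alternative pathway amplifies on C3 with factor B, and both converge on cleavage of C3. Liver makes most plasma complement, but macrophages are a known local source of C1q and C3, and they carry receptors for the small cleavage fragments C3a and C5a.

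In the GENCODE annotation of GRCm38 the 9 genes are protein coding and all lie on the minus strand. C1qa, C1qb and C1qc sit side by side within 18.7 kb of chromosome 4, at 136895917–136898803, 136880129–136886187 and 136889804–136893065. C3 (57203970–57228136), Cfb (34856374–34862518) and C4b (34728380–34743882) are on chromosome 17. Serping1 is on chromosome 2 (84765387–84775444), C3ar1 on chromosome 6 (122847138–122856161) and C5ar1 on chromosome 7 (16246743–16259540). Some of these loci limit the counts. C4b and C4a are near-identical copies 65.2 kb apart, so the C4b counts are uncertain. Of the 2825 exon bases of Cfb, 79.5% are shared on the same strand with the readthrough gene Gm20547, which had 0 counts in both tables, and reads in those bases may have been left out.

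C3 and C1qb had closely alike patterns in the IFNγ table, as given further on, and the 250 bases before their RefSeq transcript starts are shown here for that reason (GRCm38.p6, minus strand, written 5′ to 3′). The C3 bases are chr17:57228137-57228386 and the C1qb bases chr4:136886201-136886450.
C3: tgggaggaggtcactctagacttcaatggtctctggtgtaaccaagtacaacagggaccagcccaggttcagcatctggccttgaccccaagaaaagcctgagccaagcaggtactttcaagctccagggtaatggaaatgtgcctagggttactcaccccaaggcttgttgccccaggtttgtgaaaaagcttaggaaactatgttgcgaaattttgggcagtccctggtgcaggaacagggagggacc
C1qb: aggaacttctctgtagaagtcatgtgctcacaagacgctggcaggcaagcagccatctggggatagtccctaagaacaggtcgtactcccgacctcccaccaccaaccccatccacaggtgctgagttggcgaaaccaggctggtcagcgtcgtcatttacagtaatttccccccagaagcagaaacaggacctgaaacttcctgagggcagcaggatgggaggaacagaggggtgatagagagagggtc
RefSeq windows of 300 bases (250 before the start and 50 after) were at hand for 5 of the 9 genes, C3, C1qb, C1qc, C3ar1 and C5ar1. They were searched on both strands for the letters GAGGAAGT bound by the myeloid factor PU.1, picked after the windows had been seen. Of 32817 windows of that length, 3.20% held these letters. The only match in the 5 windows was 195 bases before the C1qc start on the opposite strand, and no letters are in capitals above because neither C3 nor C1qb held a match.

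C3, the component on which the pathways converge, was higher in the peptide groups of both tables than in PBS, with the size set apart by table and replicate set. In the table with IFNγ, PBS replicates 1–3 had 16.1, 15.8 and 14.6 CPM and 65–79*SE replicates 1–3 had 174, 145 and 155 CPM. The 65–79*PE replicates 1–3 had 99.6, 92.5 and 89.2 CPM. The 3 groups did not overlap, with 65–79*SE the highest. In replicates 4–6, PBS had 7.05, 6.31 and 6.00 CPM, the libraries labelled 65–79*SE had 11.4, 12.8 and 11.7 CPM, and 65–79*PE had 153, 147 and 145 CPM. There 65–79*PE stood far above the other groups, and the libraries labelled 65–79*SE lay between PBS and 65–79*PE.

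**Figure D1:**
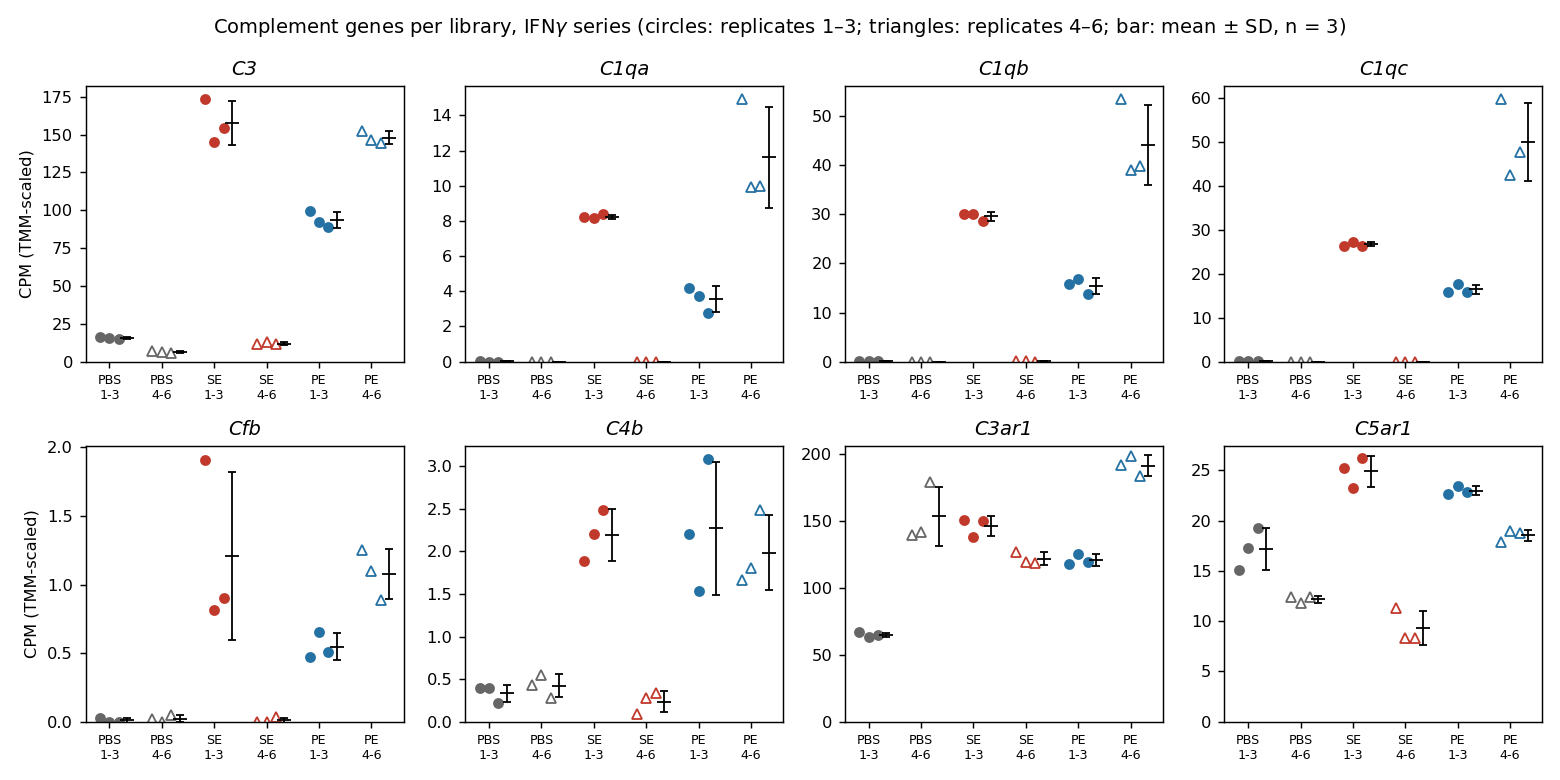
CPM (linear axes from 0) of 8 complement genes in each library of the IFNγ series, by group (PBS, SE for 65–79*SE, PE for 65–79*PE) and replicate set, with the mean ± SD of 3 libraries as a bar. The C1q chains and Cfb were near 0 in PBS and in the libraries labelled 65–79*SE, replicates 4–6, and C3 was between 89.2 and 174 CPM in the other peptide libraries.

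Calls required a fold change over 1.5 and an adjusted p-value (Benjamini-Hochberg) under 0.05 in edgeR's quasi-likelihood test. C3 passed in 8 of 8 contrasts with PBS. In replicates 1–3 of the IFNγ series it rose 10.2-fold with 65–79*SE (log2 3.35 ± 0.08 SE, adjusted p = 6.1e-17) and 6.04-fold with 65–79*PE (log2 2.59 ± 0.08, adjusted p = 2.8e-15). It rose 22.8-fold with 65–79*PE in replicates 4–6 (log2 4.51 ± 0.09, adjusted p = 1.8e-18). In the libraries labelled 65–79*SE, replicates 4–6, the rise was 1.84-fold (log2 0.88 ± 0.09, adjusted p = 5.8e-05). It was not called when those 6 libraries were fitted alone (adjusted p = 0.054). The change from replicates 1–3 to 4–6 in this contrast was -2.46 with 65–79*SE on the log2 scale (adjusted p = 1.3e-11) and 1.92 with 65–79*PE (adjusted p = 8.3e-09). The IFNγ-response score moved with C3, since the 9 libraries above 89 CPM were also the 9 that scored 6.03 to 6.37, and the part of that response in the C3 level was not tested.

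**Figure D2:**
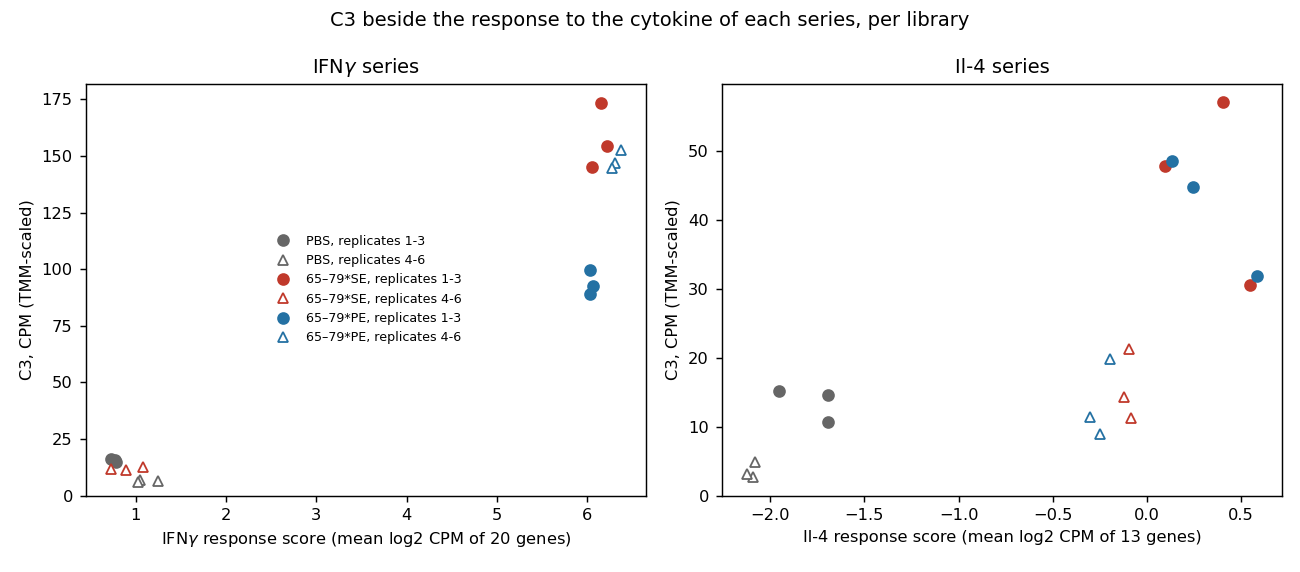
C3 in CPM (vertical axis, from 0) against the mean log2 CPM of the response genes of the cytokine of each series (horizontal axis), 1 point per library. In the IFNγ series the libraries labelled 65–79*SE, replicates 4–6 (11.4 to 12.8 CPM of C3), lie beside the PBS libraries at scores near 1, and in the Il-4 series both peptide groups lie to the right of PBS.

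With Il-4, C3 rose with both peptides by similar amounts. PBS had 10.6, 15.2 and 14.6 CPM in replicates 1–3 and 2.64, 3.18 and 4.89 CPM in replicates 4–6. The 65–79*SE libraries had 30.6, 47.8 and 57.0 CPM and then 11.2, 14.3 and 21.3 CPM, and the 65–79*PE libraries had 31.8, 44.8 and 48.5 CPM and then 8.93, 11.5 and 19.9 CPM. Within each replicate set every peptide library was above every PBS library, while the peptide groups overlapped each other. The rise with 65–79*SE was 3.35-fold (log2 1.74 ± 0.30, adjusted p = 0.0019) in replicates 1–3 and 4.34-fold (log2 2.12 ± 0.34, adjusted p = 0.0018) in replicates 4–6. With 65–79*PE it was log2 1.63 ± 0.30 (adjusted p = 0.0045) and 1.88 ± 0.34 (adjusted p = 0.0030). No difference of these contrasts between the replicate sets was called for C3 (adjusted p = 0.64 and 0.88).

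**Figure D3:**
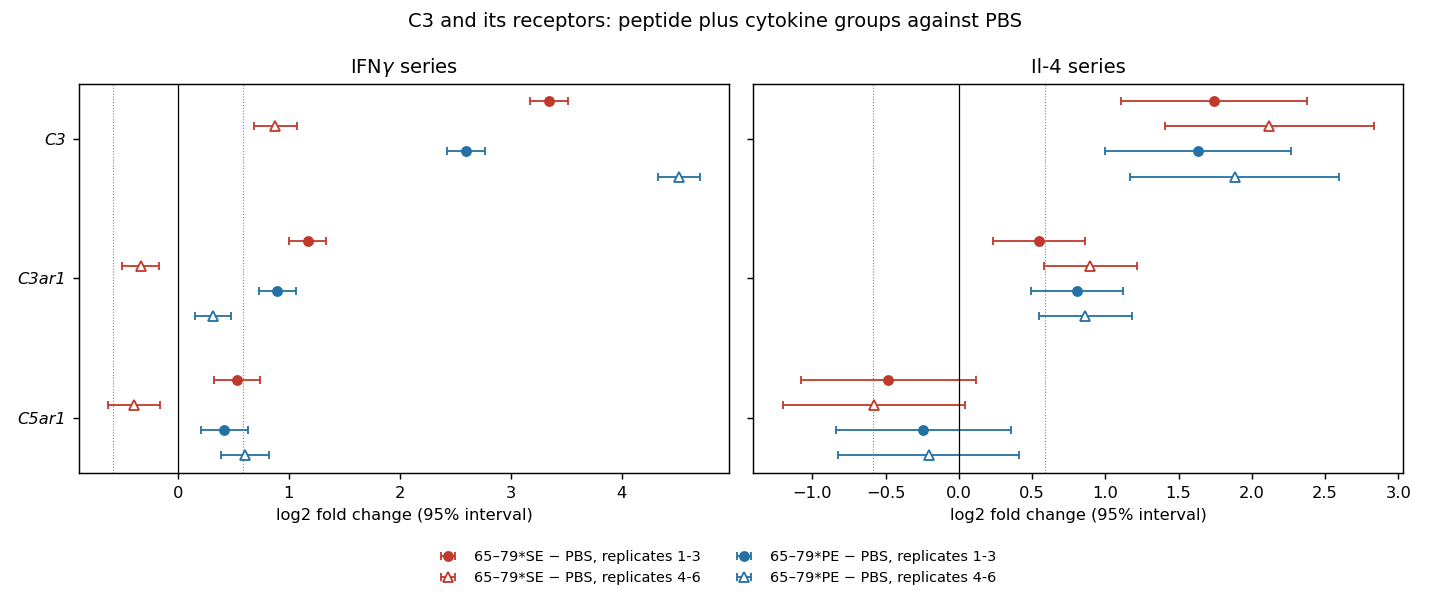
Log2 fold changes of C3, C3ar1 and C5ar1 against PBS with 95% intervals (horizontal axes, which differ between the tables), for both peptides and both replicate sets. Dotted lines mark a fold of 1.5. All C3 estimates lie to the right of 0, from 0.88 to 4.51, and the C5ar1 intervals of the Il-4 series cross 0.

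The genes of the C1q chains, the recognition molecule of the classical pathway, went from the detection floor to clear expression in the IFNγ series. C1qb had 5, 5 and 3 counts in PBS replicates 1–3 and 0 in PBS replicates 4–6. It had 30.1, 30.0 and 28.6 CPM in 65–79*SE replicates 1–3, 15.8, 16.7 and 13.7 CPM in 65–79*PE replicates 1–3, and 53.4, 39.0 and 39.9 CPM in 65–79*PE replicates 4–6. The libraries labelled 65–79*SE, replicates 4–6, had 3, 1 and 0 counts of C1qb, as low as PBS. C1qc followed the same order, at 26.5, 27.3 and 26.4 CPM, then 15.9, 17.6 and 15.9 CPM, and then 59.8, 42.6 and 47.8 CPM in those groups. C1qa was lower, at 8.20, 8.16 and 8.37 CPM, then 4.20, 3.72 and 2.75 CPM, and then 9.91 to 14.9 CPM. In the libraries labelled 65–79*SE, replicates 4–6, C1qa and C1qc had 0 counts in all 3.

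Because PBS was at the floor, these changes are given as ratios of summed counts with exact 95% counting intervals, or as bounds where PBS had no count. In replicates 1–3, C1qb was 229-fold (134 to 431) higher in 65–79*SE and 119-fold (69.6 to 225) higher in 65–79*PE than in PBS (adjusted p = 2.4e-14 and 3.0e-13, edgeR). The ratios for C1qc were 269-fold (146 to 562) and 166-fold (90.2 to 347). Those for C1qa rested on 2 counts in PBS and were 416-fold (115 to 3438) and 179-fold (49.2 to 1482). In replicates 4–6 PBS had 0 counts. With PBS set at a floor of 3 counts over the 3 libraries, 65–79*PE was 461-fold higher for C1qa, 1767-fold for C1qb and 2017-fold for C1qc (adjusted p = 5.6e-11, 2.8e-15 and 1.4e-14, edgeR). The exact lower 95% limits of these ratios were 374, 1436 and 1640. No chain was called between the libraries labelled 65–79*SE, replicates 4–6, and PBS. These cells are bulk cultures, in which more cells expressing a gene and more RNA per cell cannot be told apart.

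In the 9 libraries that expressed the chains, C1qc relative to C1qa separated the peptides, while C1qb relative to C1qa overlapped in part. These proportions were not tested. Per kilobase of exon, C1qb was 3.26 to 3.51 times C1qa in 65–79*SE replicates 1–3, 3.59 to 4.76 times in 65–79*PE replicates 1–3 and 3.42 to 3.81 times in 65–79*PE replicates 4–6. C1qc was 1.70 to 1.80, 2.04 to 3.11 and 2.16 to 2.57 times C1qa in the same groups, so that 65–79*SE lay below both sets of 65–79*PE libraries without overlap. C1qb was the most abundant chain per length in each of these libraries.

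The C1q chains stayed, with Il-4, under 3.1 CPM in every library. C1qb had 0.444, 0.559 and 0.260 CPM in PBS replicates 1–3, 3.00, 1.43 and 1.30 CPM in 65–79*SE and 2.73, 1.72 and 2.14 CPM in 65–79*PE. Both peptide groups lay above PBS without overlap, and C1qb rose by log2 2.18 ± 0.38 and 2.38 ± 0.38 (adjusted p = 0.0020 and 0.0014). C1qc rose alongside it in replicates 1–3, by 2.22 ± 0.53 with 65–79*SE and 2.66 ± 0.52 with 65–79*PE (adjusted p = 0.012 and 0.0068), the former not called without PBS replicate 3 (adjusted p = 0.072). C1qa was called there with 65–79*PE only (85 counts against 7, a ratio of 12.7 with an interval of 5.90 to 32.5, adjusted p = 0.0075), and with 65–79*SE it had 37 counts against 7 (adjusted p = 0.052, with calls at 0.033 without PBS replicate 1, at 0.0044 without the filter and at 0.028 by DESeq2). In replicates 4–6 of 65–79*PE, C1qb had 39 counts over the 3 libraries against 7 in PBS and C1qc 63 against 6 (adjusted p = 0.048 and 0.024). The C1qb call was lost without any 1 of PBS replicates 5 and 6 and the 65–79*PE replicates 4, 5 and 6 (adjusted p = 0.063 to 0.19), and the C1qc call without any 1 of the same libraries except 65–79*PE replicate 4 (adjusted p = 0.051 to 0.10). With 65–79*SE no chain was called in replicates 4–6, where C1qb had 32 counts against 7 (a ratio of 3.85, 1.67 to 10.3, adjusted p = 0.081). C1qb was called there without the filter (adjusted p = 0.035), with the replicate number as a block (0.037) and with both replicate sets in 1 fit (0.00020). Its difference of 65–79*SE minus 65–79*PE in replicates 4–6 was log2 -0.11 ± 0.43 (adjusted p = 0.97).

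**Figure D4:**
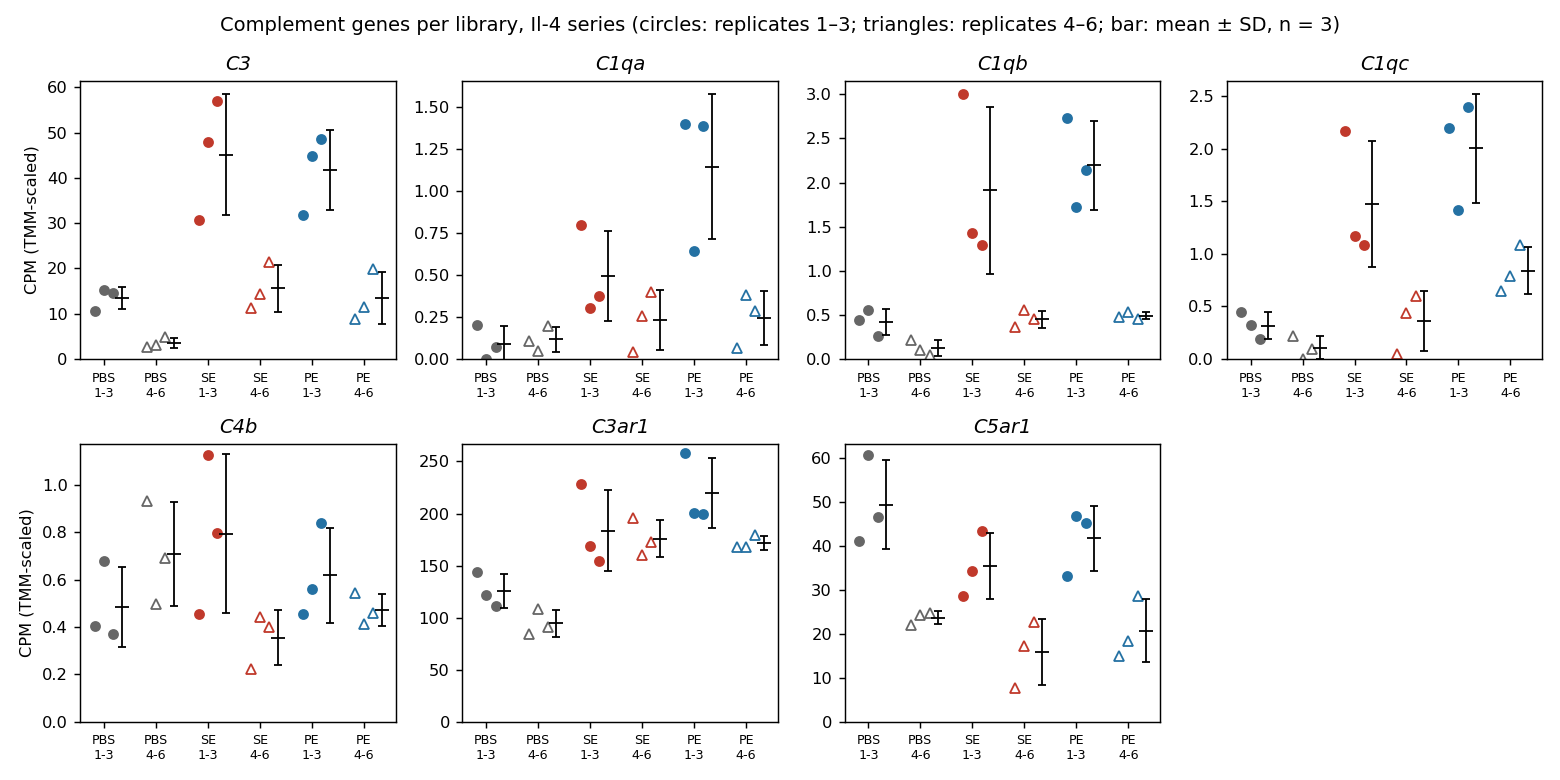
CPM (linear axes from 0) of 7 complement genes in each library of the Il-4 series, with the mean ± SD of 3 libraries as a bar; Cfb and Serping1 had at most 2 counts in any library and are not drawn. C3 and C3ar1 were higher in the peptide groups than in PBS within each replicate set, and C1qa, C1qb and C1qc stayed at or under 3.00 CPM.

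C4b, the mouse gene for complement C4 of the classical pathway, was low throughout. With IFNγ, replicates 1–3 had 0.392, 0.394 and 0.218 CPM in PBS, 1.88, 2.21 and 2.49 CPM in 65–79*SE and 2.20, 1.53 and 3.09 CPM in 65–79*PE. PBS was below both peptide groups, which overlapped. In replicates 1–3 C4b rose by log2 2.69 ± 0.34 (65–79*SE) and 2.74 ± 0.34 (65–79*PE), and 65–79*PE replicates 4–6 rose by 2.28 ± 0.33 (adjusted p = 2.0e-06, 2.3e-06 and 2.3e-05). The libraries labelled 65–79*SE, replicates 4–6, held 17 counts in all against 50 in PBS, a ratio of 0.610 (0.330 to 1.08) that was not called. With Il-4, C4b was between 0.224 and 1.13 CPM in every library and was called in no contrast.

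Cfb, which encodes factor B of the alternative pathway, was at or near 0 outside the IFNγ-responding groups. In replicates 1–3 of the IFNγ series it had 1 count over the 3 PBS libraries, 69, 28 and 34 counts in 65–79*SE and 16, 24 and 18 counts in 65–79*PE. Against that 1 count the ratios were 122 (21.5 to 4854) and 55.2 (9.52 to 2216), with adjusted p = 2.3e-07 and 1.6e-05. PBS replicates 4–6 had 3 counts in all, 65–79*PE 30, 34 and 35 counts (a ratio of 43.1, 14.3 to 212) and the libraries labelled 65–79*SE 1 count in all. With Il-4 it did not pass the filter on low counts, with 8 counts over the 6 PBS libraries, 6 over 65–79*SE and 0 over 65–79*PE.

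Serping1, which encodes the C1 inhibitor, stayed at or under 3 counts in every library. It had 4 counts over the 18 IFNγ libraries, 3 of them in 1 library, and 9 counts over 7 of the 18 Il-4 libraries. It passed the filter in neither table and was not tested.

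C3ar1, the receptor for C3a, had the highest mean level per length of the 9 genes in every group and replicate set of both tables. In PBS of the IFNγ series it was 15.1 CPM per kilobase in replicates 1–3 and 35.7 in replicates 4–6, and in 65–79*SE replicates 1–3 it overlapped C3 (33.98 ± 1.68 against 30.7 ± 2.81 CPM per kilobase, SD, n = 3). In 65–79*PE replicates 4–6 it overlapped C1qb (44.5 ± 1.77 against 40.5 ± 7.41 CPM per kilobase), which was above C3ar1 in replicate 4. Serping1, Cfb, C4b and the C1q chains lay at the other end in PBS, each at or under 0.387 CPM per kilobase in both tables, and the order among the lowest of them was within the spread of the libraries.

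With IFNγ, C3ar1 had 66.7, 63.7 and 64.5 CPM in PBS replicates 1–3, 151, 138 and 150 CPM in 65–79*SE and 118, 126 and 120 CPM in 65–79*PE. The 3 groups did not overlap. PBS replicates 4–6 began much higher, at 140, 142 and 179 CPM, with 127, 120 and 119 CPM in the libraries labelled 65–79*SE and 192, 199 and 184 CPM in 65–79*PE. C3ar1 rose by log2 1.17 ± 0.08 with 65–79*SE and 0.90 ± 0.08 with 65–79*PE in replicates 1–3 (adjusted p = 4.4e-10 and 3.2e-08). The replicates 4–6 differences were -0.33 ± 0.08 and 0.32 ± 0.08 (adjusted p = 0.020 and 0.0047), under the fold of 1.5 and so not called. Both contrasts were smaller in replicates 4–6 than in 1–3, with log2 differences of -1.51 for 65–79*SE and -0.58 for 65–79*PE (adjusted p = 3.8e-09 and 0.0029).

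The Il-4 series gave a steadier picture for this receptor. C3ar1 had 143, 122 and 111 CPM in PBS replicates 1–3, 228, 169 and 154 CPM in 65–79*SE and 258, 201 and 200 CPM in 65–79*PE. The replicates 4–6 values were 84.0, 109 and 90.6 CPM in PBS, 195, 160 and 172 CPM in 65–79*SE and 168, 168 and 180 CPM in 65–79*PE. Every peptide library was above every PBS library of its replicate set. C3ar1 rose by log2 0.81 ± 0.15 with 65–79*PE in replicates 1–3, and by 0.90 ± 0.15 with 65–79*SE and 0.86 ± 0.15 with 65–79*PE in replicates 4–6 (adjusted p = 0.0046, 0.0031 and 0.0024). With 65–79*SE in replicates 1–3 it was 0.55 ± 0.15 (adjusted p = 0.023), under the fold threshold, and it was called without the filter on low counts (0.59), with histone, mitochondrial and small RNA genes left out of scaling (0.60), with both replicate sets in 1 fit (0.73), with only the groups compared (0.61) and without PBS replicate 1, 65–79*SE replicate 2 or 65–79*SE replicate 3 (0.61 to 0.66).

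C5ar1, the receptor for C5a, differed from C3ar1 in the Il-4 series. There it had 41.0, 60.6 and 46.5 CPM in PBS replicates 1–3, 28.5, 34.2 and 43.4 CPM in 65–79*SE and 33.2, 46.7 and 45.3 CPM in 65–79*PE, with overlap among all groups. In replicates 4–6 it had 22.0, 24.3 and 24.8 CPM in PBS, 7.74, 17.1 and 22.7 CPM in 65–79*SE and 14.9, 18.4 and 28.7 CPM in 65–79*PE, again with overlap, although 2 of the 3 65–79*SE libraries lay below all PBS libraries. Its differences from PBS over both replicate sets ran from -0.58 to -0.21 on the log2 scale, and none was called (adjusted p = 0.27 to 0.76). Every 65–79*SE library lay below the PBS library of the same number, though no label ties a number to a culture. With the replicate number as a block, 65–79*SE in replicates 4–6 was called lower (log2 -0.68, adjusted p = 0.036). With IFNγ C5ar1 had 15.1, 17.3 and 19.2 CPM in PBS replicates 1–3, 25.3, 23.2 and 26.2 CPM in 65–79*SE and 22.6, 23.4 and 22.9 CPM in 65–79*PE. PBS was the lowest group without overlap, but the differences of 0.54 ± 0.10 and 0.42 ± 0.10 were under the fold threshold, which the former passed without PBS replicate 3 (0.62). Its replicates 4–6 had 12.4, 11.8 and 12.4 CPM in PBS, 11.3, 8.33 and 8.33 CPM in the libraries labelled 65–79*SE and 17.9, 18.9 and 18.7 CPM in 65–79*PE. The rise with 65–79*PE (log2 0.60 ± 0.10, adjusted p = 0.00018) passed the fold threshold narrowly and fell below it without PBS replicate 5 (0.58) or 65–79*PE replicate 6 (0.58).

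Counted over the 9 genes in the IFNγ series, 7 were called higher and 0 lower with 65–79*SE in replicates 1–3, beside 11% of all 16845 genes tested called higher. With 65–79*PE 7 were called higher in replicates 1–3 (8.38% of all genes) and 7 in replicates 4–6 (6.4%). Only C3 was called between the libraries labelled 65–79*SE, replicates 4–6, and PBS (0.873% of all genes called higher). C1qa, C1qb, C1qc and Cfb passed the low count filter through the groups in which they were high, so these counts are a description. Differences of the contrast between replicate sets were called for 5 genes with 65–79*SE, all lower in replicates 4–6 (16.8% of all genes), and for 4 with 65–79*PE, 3 of them higher (11.5% of all genes in either direction). The C1q chains were not among the 5. In replicates 4–6 PBS had 0 counts of each chain and the libraries labelled 65–79*SE at most 4 in all, so edgeR gave no usable estimate of that difference. DESeq2 called each chain lower. Of 14183 genes tested in the Il-4 series, 3 of the 9 were called higher with 65–79*SE in replicates 1–3 (1.97% of all genes called higher) and 2 in replicates 4–6 (1.23%). The counts with 65–79*PE were 5 (1.52%) and 4 (1.26%), none of the 9 was called lower, and none had a called difference between replicate sets (4.39% of all genes with 65–79*SE and 0.00705% with 65–79*PE). In this series C1qa, C1qb and C1qc passed the low count filter through the peptide groups, in which they were higher, so these counts are a description too.

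The peptides were compared with each other in 30 tests of the 9 genes over 4 sets of libraries. Dose, time and cytokine were the same by label. In 1 of these sets, in the IFNγ series, the IFNγ-response score of the 65–79*SE libraries went against that label, as given below. The p-values were adjusted over all genes of a table. In replicates 1–3 of the IFNγ series 5 genes were higher with 65–79*SE than with 65–79*PE (4.1% of all genes called higher). C3 was 1.68-fold higher (log2 0.75 ± 0.07, adjusted p = 1.5e-06), C1qa 2.32-fold (1.21 ± 0.20, adjusted p = 0.00063), C1qb 1.92-fold (0.94 ± 0.13, adjusted p = 6.6e-05) and C1qc 1.62-fold (0.70 ± 0.12, adjusted p = 0.00066). Cfb was 2.21-fold higher (1.14 ± 0.36, adjusted p = 0.035), a call that was lost without 65–79*SE replicate 1 (adjusted p = 0.32) and without any 1 of the 65–79*PE replicates (0.053 to 0.13). C3ar1 was higher by 0.28 ± 0.08 (adjusted p = 0.019), under the fold threshold. The intervals for C4b (-0.61 to 0.51) and C5ar1 (-0.09 to 0.32) included 0. These calls hold for replicates 1–3 alone. With both replicate sets in 1 fit the sign turned and none was called (C3 -1.32, adjusted p = 0.16). That fit averages in the other replicate set, whose libraries labelled 65–79*SE had an IFNγ-response score in the range of PBS. It therefore cannot test the calls of replicates 1–3.

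In replicates 4–6 the direction was the opposite, and all 8 genes tested were lower in the libraries labelled 65–79*SE than in 65–79*PE (8.1% of all genes called lower). C1qa, C1qb, C1qc and Cfb passed the low count filter through the groups in which they were high. This count, and that of the set differences below, is therefore a description. C3 was 12.4-fold lower (log2 -3.63 ± 0.09, adjusted p = 2.9e-17), C3ar1 1.57-fold (-0.65 ± 0.08, adjusted p = 2.7e-06) and C5ar1 1.99-fold (-0.996 ± 0.109, adjusted p = 7.0e-07). Against the floor, C1qa was at least 257-fold and C1qc at least 1125-fold lower, and the ratio of C1qb counts was 739-fold (288 to 2713). Cfb was 72.0-fold lower (12.6 to 2873) and C4b 8.30-fold lower (5.05 to 14.5) by counts. The difference between the replicate sets was called for all 8 genes (16.4% of all genes lower), from -0.93 for C3ar1 and -1.11 for C5ar1 to -4.38 for C3 on the log2 scale (adjusted p = 3.2e-06, 1.1e-05 and 2.5e-16). The IFNγ-response score differed between these groups in replicates 4–6 (0.73 to 1.08 against 6.28 to 6.37) and was close in replicates 1–3 (6.05 to 6.22 against 6.03 to 6.06), and the peptide and the lack of that response cannot be told apart in replicates 4–6.

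**Figure D5:**
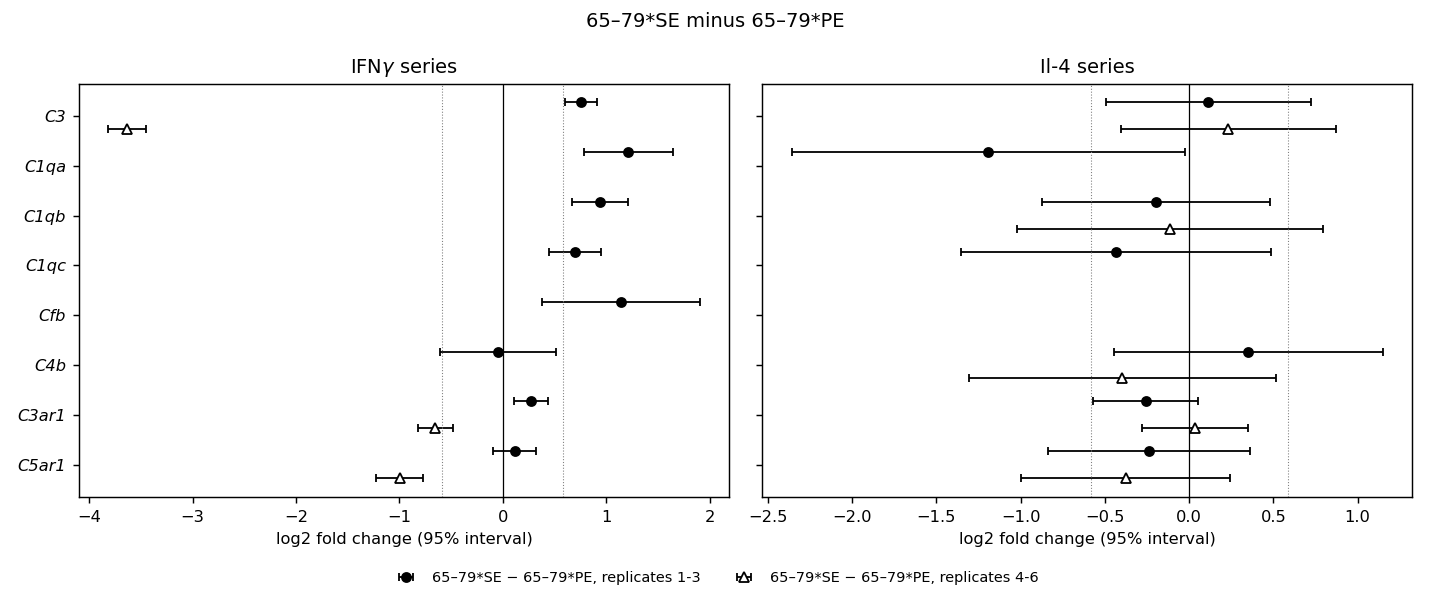
Log2 difference of 65–79*SE minus 65–79*PE with 95% intervals (horizontal axes, which differ between the tables) for each complement gene with over 3 counts in every library compared; dotted lines mark a fold of 1.5. In the IFNγ series the estimates of replicates 1–3 lie at or right of 0 except C4b (-0.05), those of replicates 4–6 lie left of 0, and every Il-4 interval but that of C1qa includes 0.

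With Il-4, none of the 14 tests called a difference between the peptides, and no gene of the whole table was called by edgeR (0% in each replicate set). At an unadjusted p under 0.05 there were 571 genes in replicates 1–3 and 1321 in replicates 4–6, and DESeq2 called 0 and 46. By edgeR without the low count filter 19 and 301 genes were called, with the replicate number as a block 0 and 4, and without 65–79*SE replicate 5 15 in replicates 4–6, but none of the 9 was called under any alternative run. The 95% intervals of 65–79*SE minus 65–79*PE for C3 were -0.49 to 0.72 and -0.40 to 0.87 on the log2 scale, and those for C3ar1 -0.57 to 0.05 and -0.28 to 0.35. For C5ar1 they were -0.84 to 0.36 and -0.995 to 0.245. C1qa in replicates 1–3 had the interval farthest from 0, -2.36 to -0.03 (unadjusted p = 0.045), and C1qc in replicates 4–6 had 25 counts against 63 (unadjusted p = 0.049). These widths do not exclude a 1.5-fold difference for C3 or C5ar1 in either replicate set.

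Other complement genes were counted from a list of 52, of which 27 passed the low count filter in the IFNγ table and 20 in the Il-4 table. In the IFNγ series 8 were called higher and 5 lower with 65–79*SE in replicates 1–3, beside 11% and 10.2% of all genes tested. With 65–79*PE 8 were called higher and 3 lower in replicates 1–3 (8.38% and 10.1% of all genes) and 10 and 2 in replicates 4–6 (6.4% and 4.77%). Only Itgax, which was higher, was called between the libraries labelled 65–79*SE, replicates 4–6, and PBS (0.873% higher and 1.16% lower over all genes). The medians over the 27 genes were 0.06, 0.19, 0.55 and -0.02 on the log2 scale in these comparisons, beside -0.04, -0.04, -0.00 and -0.00 over all genes. C1ra, which encodes a protease that C1q activates, rose from 4.07 ± 0.19 CPM in PBS to 35.6 ± 1.7 CPM in 65–79*SE and 44.7 ± 0.9 CPM in 65–79*PE in replicates 1–3 (SD, n = 3), by log2 3.13 and 3.46 (adjusted p = 7.7e-16 and 1.9e-16). Its near-identical copy C1rb, with which it may share reads, rose by 3.14 and 3.42. C1ra also rose in 65–79*PE replicates 4–6, from 3.54 ± 0.24 to 36.3 ± 3.1 CPM, and stood at 3.56 ± 0.39 CPM in the libraries labelled 65–79*SE. Colec12, a scavenger receptor with a collagen domain, fell from 233 ± 31 to 70.2 ± 5.0 CPM with 65–79*PE in replicates 1–3 (log2 -1.73, adjusted p = 4.6e-11). Between the peptides in replicates 1–3, where 4 of the 27 were called higher with 65–79*SE and 1 lower (4.1% and 1.23% of all genes), Itgax and Colec12 were higher with 65–79*SE (log2 0.94 and 0.72) and Fcna, a ficolin of the lectin pathway, was lower (-0.75).

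Itgax, the α chain of complement receptor 4 that binds cleaved C3, rose in every contrast with PBS. With IFNγ it went from 5.09 ± 0.47 CPM in PBS to 17.6 ± 0.5 CPM with 65–79*SE in replicates 1–3, and from 4.16 ± 0.48 to 18.8 ± 2.9 CPM with 65–79*PE in replicates 4–6. In the libraries labelled 65–79*SE, replicates 4–6, it was 7.41 ± 0.55 CPM (log2 0.85 ± 0.14, adjusted p = 0.0025). With Il-4, Itgax rose from 6.41 ± 2.03 CPM in PBS replicates 1–3 to 69.7 ± 17.3 CPM with 65–79*SE and 52.1 ± 31.9 CPM with 65–79*PE. Among the other 19 genes tested in that table, Cd93, once described as a C1q receptor, fell by 1.59 to 2.08 on the log2 scale in all 4 contrasts with PBS (adjusted p = 7.6e-06 to 0.00010). Over the 20 genes, 2 were called higher and 2 lower with 65–79*SE in replicates 1–3 (1.97% and 4.2% of all genes) and 1 and 1 in replicates 4–6 (1.23% and 0.973%). With 65–79*PE the counts were 2 and 1 (1.52% and 1.95%), then 2 and 2 (1.26% and 2.32%).

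The genes whose log2 CPM most resembled each of 4 members over the 18 libraries of a table were named by Pearson's r among genes of at least 10 CPM on average, as a description over libraries that share groups and replicate sets. In the IFNγ table (9095 genes) C3 was most like C1qb (r = 0.991), Aif1 (0.989), C1qc (0.985), Trafd1 (0.983) and Tlr9 (0.979). C1qb was most like C1qc (0.994), C3, Gbp4 (0.990), Aif1 (0.989) and Trafd1 (0.988). The receptors had other neighbours, Dgkh, Supt20, Ifi203, Zfp180 and Zbtb21 for C3ar1 (0.971 to 0.957) and Sys1, H2-M3, Pi4k2a, Trpv2 and Pou2f2 for C5ar1 (0.969 to 0.955). In the Il-4 table C3 was most like Anxa4 (0.961), Galm, Plxnd1, F10 and Myo1g (0.936), and C1qb was among others like Cd151 (0.963), F10, Anxa1 and Pmm1 (0.922). C3ar1 was most like Cd274 (0.948), Cryz, Serpinb9b, Rnf19b and Igf1 (0.908), and C5ar1 like Zfp512b (0.970), Csf1r, Nfatc2, H2afy and Mavs (0.963).

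Markers of osteoclasts, a cell type that RAW264.7 cells can form, differed between the groups of the IFNγ table, taken over both replicate sets together. The 4 markers were above the floor in all libraries and summed to 61.7 to 127 CPM in PBS, 40.7 to 51.7 CPM in 65–79*SE and 18.1 to 35.3 CPM in 65–79*PE. In the Il-4 table the groups overlapped, at 55.0 to 253, 70.3 to 238 and 68.6 to 238 CPM. The part of these markers in the complement values was not tested. Fibroblast, T cell, B cell and epithelial markers summed to at most 1.25 CPM in any library.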

How the data were processed

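The deposited values were raw read counts per gene, in 1 table per cytokine, which the authors obtained with featureCounts (GENCODE M12, GRCm38.p5, uniquely aligned reads) from single-end TruSeq libraries (an mRNA kit per the study's methods). The aligner and the strand setting of the counting are not given in the sources used here. Counting only unique reads can lower C4b, which has a near-identical copy.

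Groups were taken from the sample labels. Counts were fitted with edgeR 4.0.16 in R 4.3.3 (glmQLFit and glmQLFTest, TMM scaling, filterByExpr), 18 libraries per table, with 1 mean per group and replicate set. Genes were called at an adjusted p-value under 0.05 and a fold over 1.5, and differences between replicate sets by the adjusted p-value alone. CPM used effective library sizes, and CPM per kilobase the GENCODE M21 exon length. Where a library had 3 counts or fewer, ratios of summed counts with exact 95% intervals replaced fitted folds. The study's methods describe biological replicates from independent experiments, but the labels tie no library to a culture, so p-values measure the spread between libraries. The fit was tested on simulated data.

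The members and lists were chosen with earlier results of these data known. Named were the 9 members, up to 3 called genes per comparison from the other complement genes (at least 5 CPM in 1 group), and 5 genes most like each of 4 members, except that some items are not reported here. The alternatives tried were DESeq2 1.42.0, RLE size factors, no filter, other scaling genes, a replicate block, pooled replicate sets, only the groups compared, and leaving out each library. Promoter bases came from RefSeq (GRCm38.p6).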

Additional observations from a re-analysis of the deposited data

Results flagged for a closer look

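Of 45 differences between replicate sets tested, 17 were called, all in the IFNγ series, each by a test of the difference itself. Those of both contrasts with 65–79*SE rest on the libraries labelled 65–79*SE, replicates 4–6, whose IFNγ-response score lay in the range of PBS. For 65–79*SE against PBS, replicates 4–6 minus 1–3, the log2 differences were -2.46 for C3, -1.51 for C3ar1 and -0.93 for C5ar1, and near the floor C4b (adjusted p = 9.3e-05) and Cfb (adjusted p = 0.0050, and 0.086 without PBS replicate 6) were called by edgeR. The C1q chains, at or near 0 counts in both groups of replicates 4–6, could not be assessed by edgeR in this contrast. For 65–79*PE against PBS the log2 differences were 1.92 for C3 and -0.58 for C3ar1, with C1qb (adjusted p = 0.0015) and C1qc (adjusted p = 0.0026) called near the floor. For 65–79*SE against 65–79*PE they were -4.38 for C3, -0.93 for C3ar1 and -1.11 for C5ar1, with C1qb, C1qc, C1qa, C4b and Cfb near the floor (adjusted p = 8.5e-14, 4.0e-13, 4.8e-10, 0.00012 and 3.5e-06, edgeR).

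In 6 of 52 groups of 6 libraries 1 library stood far from the others by Dixon's criterion, which chance gives for about 1 in 20 groups. In the IFNγ series these were PBS replicate 1 for C1qa (0.0560 CPM) and C1qc (0.168 CPM), 65–79*SE replicate 5 (0.166 CPM) and 65–79*PE replicate 2 (0.0273 CPM) for Serping1, each from 6 counts or fewer. In the Il-4 series they were 65–79*PE replicate 3 for C4b (0.840 CPM) and 65–79*PE replicate 1 for C3ar1 (258 CPM).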

How the results depend on the processing

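Of 258 recomputed counts of called members, 243 stayed within 1.5 times the reported count. These include counts of 0 that stayed 0, in the Il-4 series between the peptides and for the set differences. Fitting both replicate sets together with a set term moved 65–79*SE against PBS, replicates 4–6, IFNγ series, from 1 to 5 members and both 65–79*SE against 65–79*PE counts to 0. It turned the difference of replicates 1–3 to -1.32 for C3, -1.53 for C1qa, -2.19 for C1qb, -2.42 for C1qc and -0.59 for Cfb on the log2 scale. It also turned Cfb, 65–79*SE against PBS in replicates 4–6, to 4.73, and leaving out single libraries moved it from -2.91 to 0.19 (without PBS replicate 6). This fit averages sets that differ in direction. With only the 2 groups fitted, 0 members were called in 65–79*SE against PBS, replicates 4–6, IFNγ series. DESeq2 called 8 set differences there in place of 5. The added ones were the C1q chains, near the floor in both groups of replicates 4–6 but not in 65–79*SE replicates 1–3. In the Il-4 series 65–79*SE against PBS in replicates 1–3 gave 5 members without the filter and 5 with histone, mitochondrial and small RNA genes left out of scaling, and in replicates 4–6 it gave 4 in the pooled fit.

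Leaving out single libraries gave 2 to 5 members for 65–79*SE against PBS in replicates 1–3 of the Il-4 series (5 without PBS replicate 1), 2 to 4 for 65–79*PE in replicates 4–6 (2 without PBS replicate 5 or 6 or 65–79*PE replicate 5 or 6), and 0 to 1 set differences with 65–79*SE (C4b, without 65–79*SE replicate 1).

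Same-numbered libraries did not deviate together in every pair (correlation over 0.1 in 5 of 18 pairs in the IFNγ table and 14 of 18 in the Il-4 table, closest to their own number in 9 and 27 of 36 comparisons), and no label ties a number to a culture or day, so the numbers were not taken as pairs. In the Il-4 table most pairs did deviate together, a hint from the data that a number may mark shared conditions there. With the replicate block, 65–79*SE against PBS in replicates 4–6 of the Il-4 series gave 4 members in place of 2, with C1qb higher and C5ar1 lower (log2 -0.68, adjusted p = 0.036), C1qa was added in replicates 1–3, and the Cfb call between the peptides was lost (adjusted p = 0.070). The genes called in the Il-4 table went from 313 to 743 and from 508 to 780 in replicates 4–6 (65–79*SE and 65–79*PE against PBS) and from 492 to 761 with 65–79*PE in replicates 1–3.

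Counts over all genes depended more on the settings. Across alternatives 65–79*SE against PBS called 569 to 3732 genes in replicates 1–3 (3573 reported) and 1 to 577 in replicates 4–6 (343) of the IFNγ series, and 346 to 1589 (875) and 45 to 893 (313) in the Il-4 series. Between the peptides the ranges were 509 to 1033 (898) and 509 to 2463 (2336) with IFNγ and 0 to 19 and 0 to 301 (0 reported) with Il-4. The 569 and 509 came from the fit of both replicate sets together, which gives the same count for both sets. Outside that fit, 65–79*SE against PBS in replicates 1–3 called fewest without PBS replicate 1 (1788 higher and 1467 lower). For 65–79*PE against PBS the ranges were 237 to 761 (492) and 235 to 805 (508) with Il-4. Called set differences ran from 1007 to 2318 (1929) for 65–79*PE with IFNγ, and with Il-4 from 0 to 2681 (622) for 65–79*SE, 1 to 222 (1) for 65–79*PE and 0 to 77 (0) between the peptides. With those genes out of scaling the split in replicates 1–3 of the Il-4 series was 362 higher and 437 lower in place of 280 and 595 with 65–79*SE, 269 and 185 in place of 216 and 276 with 65–79*PE, and 356 and 219 in place of 492 and 130 for the set difference with 65–79*SE. Depth limits Cfb, Serping1 and, in PBS, the C1q chains, which were at or near 0 counts.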
